A study of Mus musculus with 6 samples.

Results

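Messenger RNA of 9 mesothelial marker genes was compared in epididymal white adipose tissue (eWAT) of mice with lung cancer cachexia and of control mice. The genes, Wt1, Msln, Upk3b, Upk1b, Lrrn4, Krt7, Krt8, Krt18 and Krt19, were chosen by name from the 54532 genes in the count file. All 9 were found and all 9 passed the filter on low counts. RNA-seq was performed on 6 libraries, 3 from cachectic mice and 3 from control mice, each made from eWAT of the strain C57BL/6. Per the study's methods, the animals were male and 6 to 10 weeks old when obtained. Cachexia was induced by subcutaneous inoculation of 5000000 LLC cells, a mouse lung carcinoma line, into each mouse, and eWAT was harvested on day 21. Mice that lost more than 20% of body weight were defined as cachectic. For the control mice the labels give only that state, the strain and the tissue.

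The mesothelium is a single layer of flat cells that lines the serous cavities and covers the organs within them, including the fat pads of the abdomen. Its cells are of mesodermal origin but carry keratin filaments and apical membrane proteins like those of an epithelium. Wt1 is a zinc finger transcription factor of this layer, Msln (mesothelin) is a surface glycoprotein held by a lipid anchor, and the uroplakins Upk3b and Upk1b are membrane proteins first known from the urothelium. Lrrn4 is a membrane protein with leucine-rich repeats. The type II keratins Krt7 and Krt8 pair with the type I keratins Krt18 and Krt19 to form filaments, and many other simple epithelia make the same keratins.

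Total counts per library were between 14928766 and 18855546. The library of control 1 stood apart on lists of epithelial and germ cell genes. These lists were chosen with earlier results of these data known. The summed level of 18 genes of general epithelium was 268 CPM (read counts scaled to a common library size with TMM factors) in control 1 and 22.1 to 49.6 CPM in the other 5 mice, and 16 of the 18 genes were highest in control 1. Epcam, an adhesion molecule of epithelia, was at 46.9 CPM in control 1 and at 0.113 to 0.721 CPM elsewhere. A list of 18 genes of epididymal and duct epithelium summed to 51.0 CPM in control 1 and 2.03 to 4.49 CPM elsewhere, and 10 of the 18 genes were highest in control 1. Its members were not alike: Aqp9, a water and glycerol channel, was at 12.2 CPM in control 1 and at most at 2.35 CPM elsewhere, and of 2 epididymal genes named here after their values were seen, Adam7 was at 3.06 CPM in control 1 and at most at 0.991 CPM elsewhere, while Crisp1 was highest in control 3, at 0.850 CPM. Pax8, a transcription factor of duct epithelia, was at 14.9 CPM in control 1 and at most at 0.175 CPM elsewhere. Pax8, Aqp9, Cftr (12.8 CPM) and Pax2 (4.01 CPM) made up most of the sum of the duct list in control 1. Of the 10 genes highest there, Lcn5 and Rnase9 had 1 count each and Cst12 had 3. The genes over 10 times every other mouse were 2 of the 18. A list of 10 germ cell genes summed to 58.9 CPM in control 1 and 4.73 to 9.77 CPM elsewhere. The fold change of each marker is therefore given with and without control 1.

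The label of the genes was checked against other mesothelial markers. Of 16 further mesothelial genes, 15 passed the filter, among them Gpm6a, a membrane glycoprotein named like Muc16 and Calb2 after its values were seen, at 50.4 ± 5.73 CPM in control mice (SD, n = 3) and 52.7 ± 15.3 CPM in cachectic mice (SD, n = 3). Muc16, a large surface mucin, was at 24.6 ± 13.4 CPM in control mice and 23.3 ± 11.2 CPM in cachectic mice (SD, n = 3 each). Calb2, which codes for calretinin, a common stain for mesothelium, was at 0 counts in all 6 mice. The other 4 uroplakin genes were nearly silent: Upk1a was at most at 0.753 CPM and none of the 4 passed the filter.

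Compared per length, as the FPKM values allow, Upk3b was the most abundant of the 9 markers in control mice, at 39.0 ± 7.95 FPKM (SD, n = 3). Krt8 (19.7 ± 24.4 FPKM), Krt19 (19.03 ± 6.02 FPKM), Msln (18.2 ± 2.09 FPKM), Upk1b (15.3 ± 3.73 FPKM), Lrrn4 (12.6 ± 4.28 FPKM) and Krt18 (11.6 ± 15.7 FPKM) followed by their means. The gaps between neighbours in this order were smaller than the larger SD of each pair. That SD is the spread between mice, whereas the markers share their libraries. Within every mouse, control or cachectic, Msln was above Upk1b and Upk1b above Lrrn4. Wt1, at 4.84 ± 0.352 FPKM, and Krt7, at 1.36 ± 0.372 FPKM, had the lowest means. The places of Krt8 and Krt18 rested on control 1. In control mice 1, 2 and 3, Krt8 was at 47.8, 6.83 and 4.43 FPKM, above Upk3b in control 1, and Krt18 was at 29.7, 3.02 and 2.03 FPKM, below Wt1 in control mice 2 and 3. Krt7 was below Wt1 in every mouse. In cachectic mice, Msln (27.7 ± 13.6 FPKM) and Upk3b (27.2 ± 11.9 FPKM) shared the first place. Upk1b (13.5 ± 3.58 FPKM), Lrrn4 (10.7 ± 3.69 FPKM), Krt19 (9.96 ± 6.82 FPKM), Krt18 (7.31 ± 1.75 FPKM) and Krt8 (6.195 ± 4.02 FPKM) came next. The gaps between these neighbours were again smaller than the larger SD of each pair. Wt1 (3.82 ± 0.372 FPKM) and Krt7 (1.54 ± 0.645 FPKM) were lowest. These are levels of the tissue: in bulk RNA, fewer cells of a type and less RNA per cell cannot be told apart.

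None of the 9 markers passed the threshold between cachectic and control mice. By edgeR's quasi-likelihood test with Benjamini-Hochberg adjustment, 2821 genes out of 16003 passed an adjusted p of 0.05, a background of 17.6% (9% higher and 8.63% lower in cachexia), and 0 of the 9 markers did. At an unadjusted p under 0.05, 1 of the 9 markers, Wt1, passed, beside 34.4% of all genes tested. DESeq2, which gave no adjusted p for Krt18, and 3 fits with limma also called 0 markers. The median log2 fold change of the markers was -0.33, beside -0.0031 over all genes tested, and their median standard error was 0.36, beside 0.22. The groups did not overlap for 1 of the 9 markers, against 40.5% of all genes tested.

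**Figure D1:**
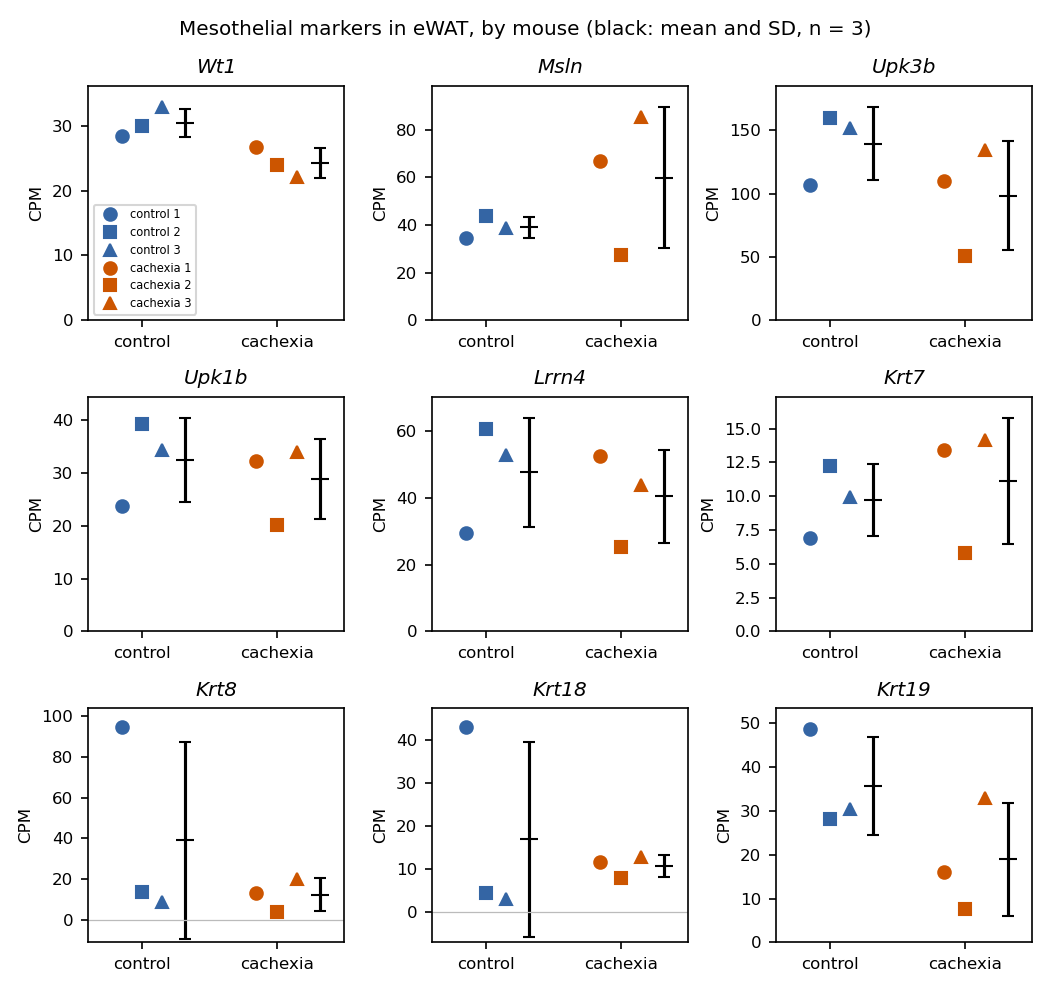
Level of each of the 9 mesothelial markers in CPM (TMM-scaled, linear axis) in the 3 control mice (blue) and the 3 cachectic mice (orange), with the mouse number shown by the marker shape and the mean and SD (n = 3) in black. Control 1 stands above every other mouse for Krt8, Krt18 and Krt19, and cachexia 2 is lowest for 7 of the 9 genes.

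Wt1 (ENSMUSG00000016458, chr2:105126529-105173616, plus strand, GRCm38) was the marker whose groups did not overlap. It was at 28.4, 29.9 and 32.8 CPM in control mice 1, 2 and 3, and at 26.7, 23.9 and 22.1 CPM in cachectic mice 1, 2 and 3. All 3 cachectic mice lay below all 3 control mice. The log2 fold change was -0.33 (SE 0.14, 95% interval -0.64 to -0.01), with an adjusted p of 0.13 by edgeR's quasi-likelihood test, and -0.37 without control 1. Wt1 also had the narrowest spread, its highest mouse being 1.48 times its lowest. Wt1os, a gene transcribed next to Wt1, had at most 44 counts in a mouse and does not overlap it.

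Msln (ENSMUSG00000063011, chr17:25748614-25754327, minus strand) had the highest log2 fold change of the 9. It was at 34.7, 43.8 and 38.6 CPM in control mice 1, 2 and 3, and at 67.0, 27.5 and 85.2 CPM in cachectic mice 1, 2 and 3. Cachectic mice 1 and 3 lay above every control mouse and cachexia 2 lay below all of them. The log2 fold change was 0.62 (SE 0.36, 95% interval -0.21 to 1.44; adjusted p = 0.26 by edgeR's quasi-likelihood test). Without cachexia 2 the value was 0.97, with an adjusted p of 0.0169 by the same test over 16574 genes. In that fit 2026 of the 16574 genes passed. The mouse left out was the 1 cachectic mouse below the control mice. The log2 fold change of Msln was 0.28 without cachexia 3, with an adjusted p of 0.62 by the same test, and 0.54 without control 1.

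Upk3b, Upk1b and Lrrn4 varied together across the 6 mice, and the promoters of Upk3b and Lrrn4 are shown for that reason. The table of RefSeq promoters used here (GRCm38.p6) held 5 of the 9 markers, and among them Upk3b and Lrrn4 shared the letters GGAATG, the core of the motif of TEAD transcription factors, read on both strands. These letters occur in 14.7% of 32851 promoters of the same length, 250 bases before to 50 after the start, so the match is a description of these windows. Upk1b was not among the 5, and Krt7, which was, has no such match. A link between the motif and the levels was not tested. Pearson's r of the log2 CPM of Krt7 over the 6 mice was 0.74 with Upk3b, 0.90 with Upk1b and 0.86 with Lrrn4. The 250 bases before each RefSeq start are printed 5′ to 3′ on the strand of the gene, with GGAATG or its reverse complement in capitals, for Upk3b at chr5:136038246-136038495 (plus strand) and for Lrrn4 at chr2:132880863-132881112 (minus strand).
Upk3b: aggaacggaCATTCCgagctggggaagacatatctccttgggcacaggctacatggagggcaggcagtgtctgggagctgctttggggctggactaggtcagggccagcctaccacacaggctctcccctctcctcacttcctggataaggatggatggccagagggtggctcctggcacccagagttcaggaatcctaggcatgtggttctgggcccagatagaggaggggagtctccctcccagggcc
Lrrn4: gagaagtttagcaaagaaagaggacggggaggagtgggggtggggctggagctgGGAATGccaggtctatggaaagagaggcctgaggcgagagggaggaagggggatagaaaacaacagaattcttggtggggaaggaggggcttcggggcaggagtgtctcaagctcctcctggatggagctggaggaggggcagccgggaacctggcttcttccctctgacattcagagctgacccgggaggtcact
The first base of the match lies 241 bases before the start of Upk3b and 196 bases before that of Lrrn4. Of 5 other motifs searched in the same way, the TATA box TATAAA (13.6% of all promoters) was found in Krt8, on both strands of a run across its RefSeq start, and the GC box GGGCGG (35.7%) in Krt7, in 4 copies. The motifs CCAAT (37.4%), TGANTCA of AP-1 (7.81%) and GCGNGGGCG of Wt1 (5.55%) were in none of the 5 windows.

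Upk3b (ENSMUSG00000042985, chr5:136038496-136046487, plus strand) was at 107, 160 and 152 CPM in control mice 1, 2 and 3, and at 110, 50.8 and 134 CPM in cachectic mice 1, 2 and 3. Control mice 2 and 3 were the highest and cachexia 2 the lowest, while control 1 lay beside cachexia 1. The log2 fold change was -0.50 (SE 0.34, 95% interval -1.28 to 0.27; adjusted p = 0.33 by edgeR's quasi-likelihood test). Without control 1 it was -0.67, and the direction was the same in each of the 16 alternative settings.

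Upk1b (ENSMUSG00000049436, chr16:38773184-38800328, minus strand) was at 23.7, 39.3 and 34.3 CPM in control mice 1, 2 and 3, and at 32.4, 20.1 and 34.0 CPM in cachectic mice 1, 2 and 3. The groups overlapped, with control 1 and cachexia 2 low and the other 4 mice together. Its log2 fold change of -0.17 (SE 0.25, 95% interval -0.75 to 0.42) had an adjusted p of 0.68 by edgeR's quasi-likelihood test, and was -0.35 without control 1 and 0.04 without cachexia 2.

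Lrrn4 (ENSMUSG00000043110, chr2:132868305-132880891, minus strand) was at 29.4, 60.5 and 52.9 CPM in control mice 1, 2 and 3, and at 52.5, 25.2 and 43.9 CPM in cachectic mice 1, 2 and 3. Control 1 and cachexia 2 were again the low mice, and the groups overlapped. Its log2 fold change of -0.23 (SE 0.33, 95% interval -0.99 to 0.53) had an adjusted p of 0.66 by edgeR's quasi-likelihood test, and was -0.48 without control 1 and 0.02 without cachexia 2. Across the 6 mice, Pearson's r of log2 CPM was 0.97 between Upk1b and Lrrn4, 0.90 between Upk3b and Upk1b and 0.84 between Upk3b and Lrrn4. Without control 1 the values were 0.97, 0.98 and 0.94. Krt7 had an r of 0.74 with Upk3b, 0.90 with Upk1b and 0.86 with Lrrn4, or 0.81, 0.87 and 0.82 without control 1. With Wt1 the uroplakins and Lrrn4 had an r of 0.34 to 0.50. The points share their libraries, so these values are descriptive.

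Krt8, Krt18 and Krt19 were highest in control 1. Krt8 (ENSMUSG00000049382, chr15:101996698-102004482, minus strand) was at 94.7, 13.6 and 8.78 CPM in control mice 1, 2 and 3, and at 13.2, 3.99 and 20.1 CPM in cachectic mice 1, 2 and 3. Control 1 was 8.47 times the mean of the other 2 control mice, and those 2 lay inside the range of the cachectic mice. The log2 fold change was -1.66 (SE 0.92, 95% interval -3.78 to 0.47; adjusted p = 0.24 by edgeR's quasi-likelihood test). Without control 1 it was 0.15 (SE 0.58, 95% interval -1.22 to 1.52), so the direction turned.

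Krt18 (ENSMUSG00000023043, chr15:102028180-102032027, plus strand), the partner of Krt8 in simple epithelia, lies 23.7 kb from it on the same chromosome. It was at 43.2, 4.41 and 2.95 CPM in control mice 1, 2 and 3, and at 11.6, 7.86 and 12.8 CPM in cachectic mice 1, 2 and 3. Control 1 was the highest mouse, at 11.7 times the mean of control mice 2 and 3, which in turn lay below all 3 cachectic mice. With all 6 mice the log2 fold change was -0.65 (SE 0.89, 95% interval -2.71 to 1.41; adjusted p = 0.65 by edgeR's quasi-likelihood test). Without control 1 it was 1.54 (SE 0.32, 95% interval 0.79 to 2.30; adjusted p = 0.0251 by the same test). Without that mouse 2187 of 16370 genes passed, or 13.4%, and Krt18 was the 1 marker among them. The controls in that comparison are 2 mice, and leaving control 1 out was chosen with its values known.

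Krt19 (ENSMUSG00000020911, chr11:100140810-100148665, minus strand), a small type I keratin of simple epithelia, was at 48.6, 28.1 and 30.4 CPM in control mice 1, 2 and 3, and at 16.2, 7.55 and 33.0 CPM in cachectic mice 1, 2 and 3. Cachexia 3 lay above control mice 2 and 3, and the other 2 cachectic mice lay below every control mouse. The log2 fold change was -0.92 (SE 0.48, 95% interval -2.02 to 0.18; adjusted p = 0.21 by edgeR's quasi-likelihood test). Without control 1 it was -0.63, and without cachexia 3 it was -1.59, with an adjusted p of 0.0437 by the same test. In the fit without cachexia 3, 2339 of 16502 genes passed. The mouse left out was the 1 cachectic mouse within the range of the control mice.

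Krt7 (ENSMUSG00000023039, chr15:101411043-101430313, plus strand), a type II keratin of simple and duct epithelia, was the keratin that did not peak in control 1. It was at 6.92, 12.3 and 9.92 CPM in control mice 1, 2 and 3, and at 13.4, 5.77 and 14.2 CPM in cachectic mice 1, 2 and 3. Control 1 and cachexia 2 were its low mice, the order seen for Upk1b and Lrrn4. Its log2 fold change was 0.20 (SE 0.37, 95% interval -0.65 to 1.04; adjusted p = 0.74 by edgeR's quasi-likelihood test), and was 0.0020 without control 1 and -0.0092 without cachexia 3. Genes on the other strand that overlap Krt7 (Gm671) and Krt8 (Gm36026) had at most 7 and 4 counts in a mouse, and the pseudogene Krt8-ps at most 3.

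**Figure D2:**
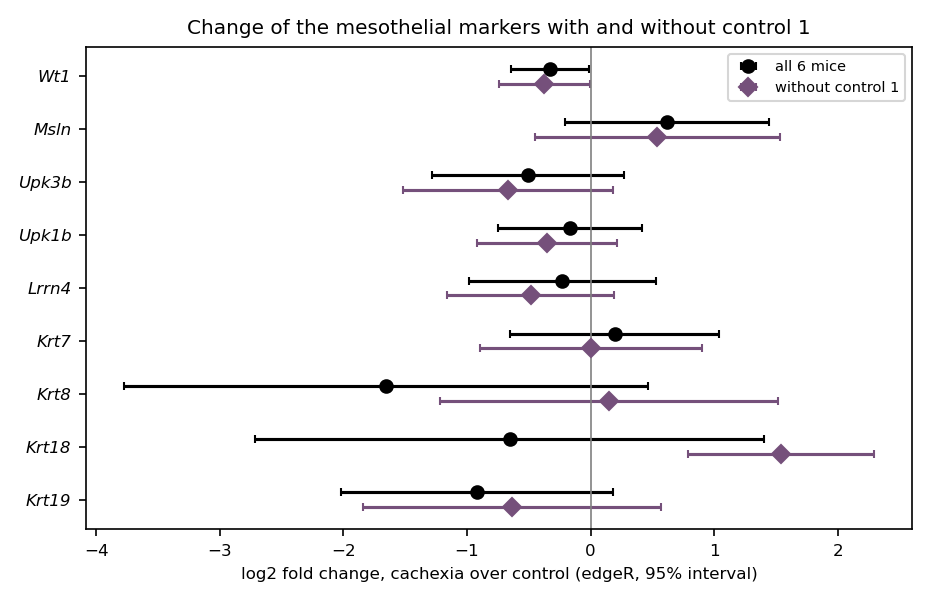
Log2 fold change of cachexia over control for each marker, with its 95% interval, from edgeR's quasi-likelihood fit to all 6 mice (black circles) and to the 5 mice without control 1 (purple diamonds). With all 6 mice only the interval of Wt1 lies wholly on 1 side of 0, and without control 1 Krt18 moves from -0.65 to 1.54 and Krt8 from -1.66 to 0.15.

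The 5 markers other than keratins summed to 223, 333 and 310 CPM in control mice 1, 2 and 3, and to 288, 147 and 320 CPM in cachectic mice 1, 2 and 3. Cachexia 2 was therefore the low mouse of the whole set, and it was the lowest mouse for 7 of the 9 markers. The 4 keratins summed to 193, 58.4 and 52.1 CPM in control mice and to 54.4, 25.2 and 80.1 CPM in cachectic mice. In control 1, Krt8, Krt18 and Krt19 were high with the lists of general epithelium, of epididymal and duct epithelium and of germ cells, while Krt7 and the 5 other markers were not. The part of those lists in the keratin values of control 1 was not tested.

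**Figure D3:**
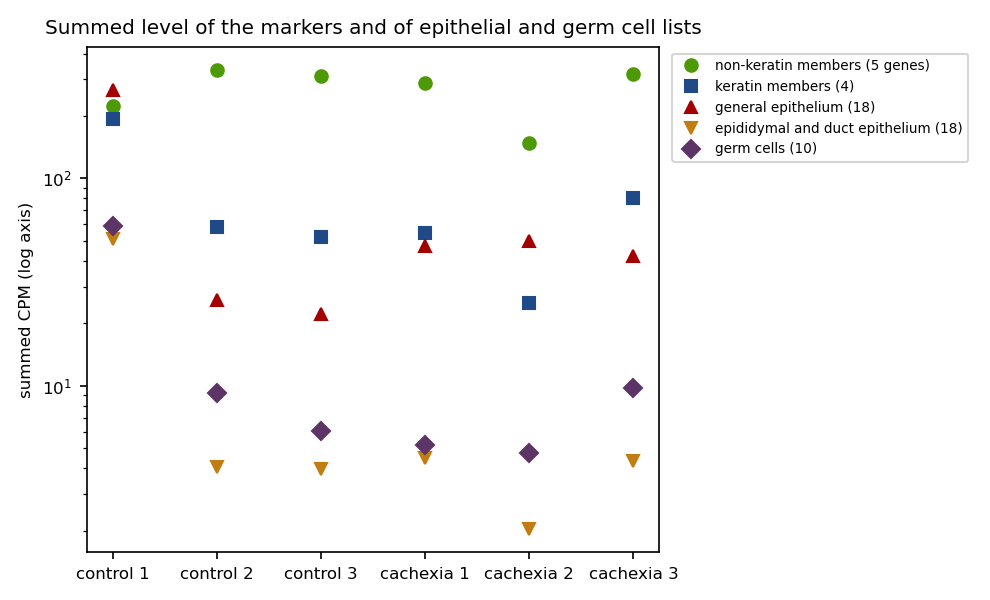
Summed level in CPM (log axis) in each of the 6 mice for the 5 non-keratin markers, the 4 keratin markers and the lists of general epithelium (18 genes), epididymal and duct epithelium (18 genes) and germ cells (10 genes). In control 1 general epithelium reaches 268 CPM against at most 49.6 CPM elsewhere, the keratins reach 193 CPM, and the non-keratin markers stay at 223 CPM.

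With both control 1 and cachexia 2 left out, a comparison of 2 mice with 2 chosen after the values were seen, 2070 of 16090 genes passed, or 12.9%. Krt18 was then 1.73 higher on the log2 scale (SE 0.28; adjusted p = 0.0210) and Msln 0.89 higher (SE 0.17; adjusted p = 0.0289), both by edgeR's quasi-likelihood test. The other 7 markers did not pass. Krt8 was at 0.57 and Upk3b at -0.35 in that fit.

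Ratios of 2 markers within a mouse do not depend on how libraries are scaled. Of the 36 pairs, 5 had groups that did not overlap, against 40.1% of all 125286535 pairs of tested genes counted in every mouse. The ratio of Msln to Upk3b counts was 0.325, 0.274 and 0.254 in control mice 1, 2 and 3 and 0.611, 0.541 and 0.634 in cachectic mice 1, 2 and 3. All 3 cachectic mice lay above all 3 control mice, the low mouse cachexia 2 included, and the mean ratio was 2.10-fold higher (1.07 on the log2 scale, and 1.17 without control 1). The exact two-sided permutation test gave p = 0.1, the smallest that 3 against 3 allow, and 0.72 after Benjamini-Hochberg adjustment over the 36 pairs.

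The ratio of Krt8 to Krt18 counts was 2.19, 3.08 and 2.98 in control mice 1, 2 and 3 and 1.14, 0.508 and 1.57 in cachectic mice 1, 2 and 3. Control 1, although far higher for both keratins, kept a ratio above every cachectic mouse. The log2 ratio fell by 1.49 (exact two-sided permutation p = 0.1, adjusted 0.72), and by 1.65 without control 1. The other 3 such pairs were Msln with Krt19, Upk3b with Upk1b and Upk3b with Krt7. Msln to Krt19 was higher by 1.60 on the log2 scale in cachexia, and Upk3b was lower against Upk1b by a log2 ratio of -0.42 and against Krt7 by -0.72.

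**Figure D4:**
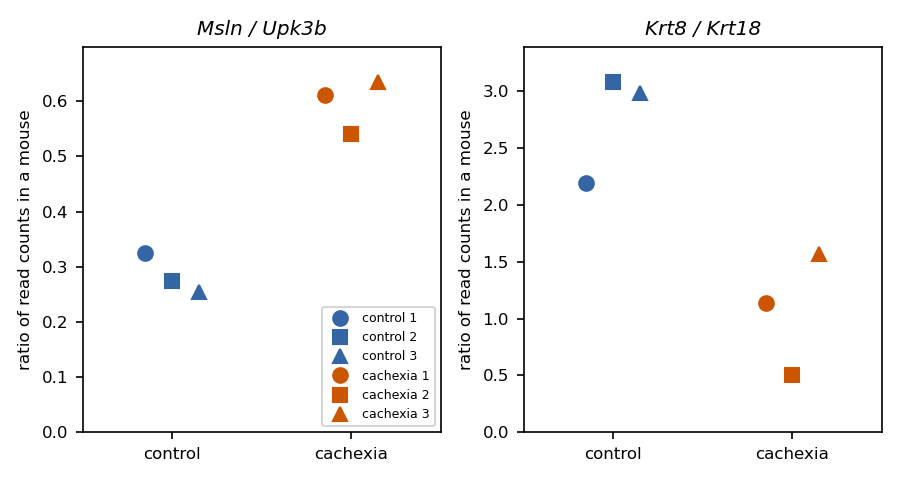
Ratio of the read counts of Msln to Upk3b (left) and of Krt8 to Krt18 (right) within each of the 3 control mice (blue) and 3 cachectic mice (orange), on linear axes from 0. The groups are apart in both, at 0.254 to 0.325 against 0.541 to 0.634 for Msln to Upk3b and at 2.19 to 3.08 against 0.508 to 1.57 for Krt8 to Krt18.

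Among the 16 further mesothelial genes, 1 passed the threshold as higher in cachexia and 0 as lower by edgeR's quasi-likelihood test. The other 14 of the 15 tested did not pass, beside a background of 17.6% passing, and the median log2 fold change was -0.09. At an unadjusted p under 0.05, 1 was higher and 2 were lower, or 20%, beside 34.4% of all genes tested. The 2 lower genes were Cdh2 (log2 fold change -1.18, adjusted p = 0.071) and Pkhd1l1 (-0.71, adjusted p = 0.13), by the same test. For Cdh2 all 3 cachectic mice lay below all 3 control mice. The same held for Pdpn, Tbx18 and Rspo1, which did not pass at either level. For Rspo1 it held only just, with control 3 and cachexia 1 both at 35.8 CPM. The gene that passed was Cldn15, a claudin of tight junctions. It was at 35.2, 43.6 and 38.0 CPM in control mice 1, 2 and 3, and at 93.5, 89.1 and 171 CPM in cachectic mice 1, 2 and 3. All 3 cachectic mice lay above the control mice, and 40.5% of all genes tested likewise had groups that did not overlap. Cldn15 had a log2 fold change of 1.60 (SE 0.26, 95% interval 0.99 to 2.20, adjusted p = 0.0080 by edgeR's quasi-likelihood test). It passed in all 16 alternative settings. For Cldn15 cachexia 2 was the lowest of the cachectic mice, but that mouse still lay above every control mouse. Slpi, a secreted protease inhibitor and the most abundant of the list by FPKM, was at 34.9 ± 9.18 CPM in control mice and 61.7 ± 45.7 CPM in cachectic mice (SD, n = 3 each). Cd200, a membrane protein that many other cells also make, was at 65.5 ± 8.15 and 78.4 ± 18.01 CPM (SD, n = 3 each).

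Of 15 other keratin genes, 3 passed the filter and 6 were at 0 in every mouse. Of the 3 tested, 2 passed the threshold, both lower, beside 17.6% of all genes tested. Krt79 was lower in cachexia with a log2 fold change of -1.43 (SE 0.34; adjusted p = 0.0270) and Krt80 with -1.05 (SE 0.24; adjusted p = 0.0226), both by edgeR's quasi-likelihood test. Krt79 was at 2.75 to 4.53 CPM in control mice and 1.25 to 1.60 CPM in cachectic mice, and Krt80 at 6.42 to 7.74 CPM and 3.25 to 3.67 CPM. Neither was highest in control 1. With 1 mouse left out, Krt79 kept its direction (-1.63 to -1.31) but passed only without control 2, and Krt80 (-1.13 to -0.99) passed only without control 1 or cachexia 3. The lists of epididymal and duct epithelium and of germ cells had 2 genes tested each and 0 called, beside the same 17.6%. At an unadjusted p under 0.05, 1 of the 2 duct genes, Aqp9, was lower, beside 34.4% of all genes tested. Aqp9 was at 12.2, 2.35 and 1.98 CPM in control mice 1, 2 and 3, and at 1.11, 0.553 and 1.97 CPM in cachectic mice 1, 2 and 3.

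Genes of the other cell types of the fat pad moved in both directions beside the markers. Read against the same background of 17.6%, 5 of 10 endothelial genes were higher and 0 lower, led by the adhesion molecules Esam (log2 fold change 1.55) and Pecam1 (1.159), the claudin Cldn5 (0.75) and the cadherin Cdh5 (0.74). Their summed level was 1740 to 1863 CPM in control mice and 2674 to 3894 CPM in cachectic mice. Among 10 fibroblast and progenitor genes Ly6a, a progenitor surface antigen, was higher (0.97) and 5 were lower. The lower genes were led by the collagens Col3a1 (-3.18) and Col1a1 (-2.61), fibronectin Fn1 (-2.18) and the proteoglycan Lum (-2.02). That list summed to 6275 to 6671 CPM in control mice and 2646 to 3653 CPM in cachectic mice. Among 10 adipocyte genes the lipase Pnpla2 (1.08) and the lipid droplet gene Cidec (0.87) were higher and the leptin gene Lep (-3.14) was lower. Among 8 macrophage genes Cd14, a receptor for bacterial lipopolysaccharide, was higher (1.09) and the mannose receptor Mrc1 was lower (-0.90). Of these 14 named genes Esam, Col3a1, Col1a1 and Fn1 passed in all 16 alternative settings, and each of the others lost its call with at least 1 mouse left out. Their part in the marker values, through a change of composition of the tissue, was not tested.

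The genes whose level followed the markers most closely were sought among all other tested protein-coding genes. With the mean log2 CPM of the 5 non-keratin markers over the 6 mice, the highest Pearson's r were those of Cr1l (0.992), Adgrb2 (0.985), Creb5 (0.981), Tmem151a (0.981) and Gnai1 (0.979). Without control 1, over 5 mice, they were those of Ezr (0.998), Cyp11a1 (0.996, at most at 0.688 CPM in those mice), Cr1l (0.996), Emc4 (0.996) and Rspo1 (0.994). Ezr, which codes for ezrin, a linker of membrane and actin in microvilli, and Rspo1, a secreted Wnt pathway agonist, belong to the list of further mesothelial genes. These are the highest values among all genes searched, over few mice, and are given as a description. Ezr was at 95.3 CPM in control 1, 48.0 and 45.0 CPM in control mice 2 and 3, and 46.1, 24.8 and 46.9 CPM in cachectic mice 1, 2 and 3, so it was high in control 1 with the keratins and low in cachexia 2 with the other markers. For the keratins the highest r were those of Trim21 (0.998), Ppat (0.989), Tmem115 (0.988), Thumpd2 (0.986) and Shox2 (0.983), and 0 of these 5 remained among the first 5 without control 1.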

How the data were processed

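The 6 libraries were grouped by their labels. For the counts, the authors discarded reads with adapters, poly-N or low quality, mapped the remainder by Hisat2 and assigned them to genes by FeatureCounts (1.5.0-p3 in the submitters' processing notes), and deposited raw counts per mouse. The deposited FPKM values were calculated by the authors from count and gene length. The notes name mm9, whereas 98.3% of the genes shared with GENCODE M21 have the coordinates of that GRCm38 annotation, Msln being the 1 marker that differs. Strandedness was not given in the sources used here. The authors' table of their own DESeq2 (1.16.1) fold changes and p-values was not used.

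The counts were fitted with edgeR 4.0.16 under R 4.3.3, using filterByExpr, TMM factors and no covariates. P-values of the quasi-likelihood test were adjusted over 16003 genes by Benjamini-Hochberg, with a threshold of 0.05. The standard error is the log2 fold change divided by the square root of F. CPM used TMM-scaled library sizes, and log2 CPM used a pseudocount of 0.5. Alternatives were other scalings and filters, DESeq2 1.42.0, limma 3.58.1 (voom, and log2 of FPKM plus 1 or 0.1), each mouse left out and a replicate block. The fit was tested on simulated counts. All pairs of libraries differed by more than sampling noise. The labels name no batch and do not state that each library is a separate animal. If some share an animal, p-values measure only the spread between these samples.

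The markers and gene lists were chosen with earlier results of these data known. Named are the 9 markers, list genes past the threshold (at most 4 in each direction per list) or among the 3 most abundant of a list by FPKM, and the 5 protein-coding genes most alike each marker set. Further names are marked as chosen later or serve a count. The result of 1 list gene is not reported here.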

Additional observations from a re-analysis of the deposited data

How the results depend on the processing

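With 3 mice per group, total counts of 14928766 to 18855546 and intervals up to several log2 units wide for Krt8 and Krt18, a marker that did not pass is not shown to be alike in the groups. The number of markers called was 0 in 12 of the 16 settings, from 0 to 1 when 1 mouse was left out (1 without control 1, without cachexia 2 or without cachexia 3) and 2 without both control 1 and cachexia 2, a setting chosen after seeing the data. The number of genes called was 828 to 2339 when 1 mouse was left out, with 1312 without control 2 and 828 without control 3, and 1881 with a replicate block against 2821. With that block 6 of the calls among named list genes were lost with about the same fold (Krt79, Krt80, Cidec, Pnpla2, Cdh5 and Mrc1, adjusted p 0.0584 to 0.0937 by edgeR). The replicate numbers showed no pairing over all tested genes: deviations from the group means correlated at -0.0031, -0.011 and 0.0085 for mice 1, 2 and 3. These correlations would not show a pairing limited to some genes. With the replicate block Krt18 turned to 0.32, and it was 0.27 by limma-voom, 0.18 on log2(FPKM + 1), 0.32 on log2(FPKM + 0.1), 1.54 without control 1 and 1.73 without control 1 and cachexia 2, DESeq2 giving it no adjusted p. Krt8 turned to 0.15 without control 1 and 0.57 without both. Upk1b (0.039) and Lrrn4 (0.023) turned without cachexia 2, and Krt7 (-0.0092) without cachexia 3. With 1 mouse left out, Krt18 ranged from -1.15 to 1.54, Krt8 from -2.18 to 0.15, Upk1b from -0.35 to 0.039, Lrrn4 from -0.48 to 0.023 and Krt7 from -0.0092 to 0.51. The cause was not tested beyond the mouse left out. Wt1 (-0.40 to -0.26), Upk3b (-0.79 to -0.19), Msln (0.28 to 0.97) and Krt19 (-1.59 to -0.25) kept their direction in all 16 settings. The log2 ratio difference of Msln to Upk3b was 0.99 to 1.17 and that of Krt8 to Krt18 -1.84 to -1.03 with 1 mouse left out. Of the 5 genes most alike each set, 1 for the non-keratin markers and 0 for the keratins remained without control 1.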
